A study of Mus musculus with 18 samples.

Results

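The Dlk1-Dio3 domain of mouse chromosome 12 is an imprinted locus, in which the parental origin of the chromosome sets which genes are transcribed. Dlk1 (a transmembrane protein related to Notch ligands), Rtl1 (a protein derived from a retrotransposon) and Dio3 (the deiodinase that inactivates thyroid hormone) are transcribed from the paternal chromosome. Meg3, Rian and Mirg are non-coding RNAs of the maternal chromosome, transcribed in the same direction as each other, and Rian and Mirg carry clusters of small nucleolar RNAs and microRNAs. The locus is known in muscle from the callipyge sheep, in which altered expression of these genes accompanies muscle hypertrophy. The arrays do not tell the parental alleles apart, and mature microRNAs were not analysed here.

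All probes whose gene name in the scanner files was Dlk1, Meg3, Rian, Mirg, Rtl1 or Dio3 were taken. Of these 6 genes, 5 had a probe, 9 probes in all, out of 35527 gene names on the array. No probe carried the name or the RefSeq accession of Rian. In the RefSeq table (assembly GRCm38.p6) Rian lies between the transcript antisense to Rtl1 and Mirg, so the probes of other names in that stretch are described below by their array position and are not attributed to Rian.

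RNA came from wild-type CD1 female mice aged 3 months, with no treatment. Single fibers, freed from muscle with collagenase, were pooled by 5 to 10 and split into a nuclear pellet and a cytoplasmic supernatant. Extensor digitorum longus (EDL, a fast muscle), soleus (a slow muscle) and tibialis anterior (TA, a fast muscle) each gave 3 arrays of cytoplasm and 3 of nuclei, 18 in all. By the labels the EDL and soleus pools with the same number, of both fractions, came from the same 2 mice. TA cytoplasm 1 came from mice 5 and 1, TA cytoplasm 2 from mice 5 and 2, and TA cytoplasm 3 from mouse 9. TA nuclei 1, 2 and 3 each came from a single mouse, numbered 1, 2 and 3. TA cytoplasm 3 and TA nuclei 3 therefore shared no mouse, and mouse numbers 3 and 5 also occur in EDL and soleus pools. Signal was well above background on 58.6% to 71.2% of the spots, and 3 arrays a group set the limit of precision. Soleus cytoplasm 2 had the lowest of these shares and lay nearest to the nuclear arrays on the main axis of variation. All EDL and soleus cytoplasm arrays were on slide 1 and all EDL and soleus nuclei on slide 2, so slide and fraction cannot be told apart in these muscles. Slide 3 held TA cytoplasm 2 and the 3 TA nuclei. The labels fitted the fiber types: in nuclei, soleus against EDL differed by -3.92 (log2) for Myh4, the fast IIb myosin (adjusted p = 0.011), and by 3.52 for Myh7, the slow myosin (adjusted p = 0.00041). In such pools, fewer cells of a type and less RNA per cell cannot be told apart.

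The 3 Meg3 and 2 Mirg probes lie on the forward strand of chromosome 12 (mm9). The sequences of 4 of them are shown because probes of the same RNA differed in the sign of the fraction difference over the muscles. For Mirg the first probe was not called over the muscles and the second reversed its sign without scaling, as given below. The second Meg3 probe lies at chr12:110799558-110799617 and the third at chr12:110809678-110809737. The Mirg probes lie at chr12:110979653-110979712 and chr12:110987569-110987628. The scanner files describe the first and the third Meg3 probe as transcript variant 3 and the second as transcript variant 1. The sequences run 5′ to 3′, and capitals in the second Mirg probe mark the 21 bases to which the study's reverse qPCR primer for Mirg pairs.
Meg3, the second probe (A_52_P196568): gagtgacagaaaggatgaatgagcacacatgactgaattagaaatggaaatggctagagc
Meg3, the third probe (A_51_P455997): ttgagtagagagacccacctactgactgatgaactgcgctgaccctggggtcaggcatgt
Mirg, the first probe (A_55_P2336173): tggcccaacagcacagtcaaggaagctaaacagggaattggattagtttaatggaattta
Mirg, the second probe (A_66_P121059): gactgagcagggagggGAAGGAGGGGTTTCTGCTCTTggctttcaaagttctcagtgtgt
None of the 9 probes shared 30 bases or more with another probe of the array, on either strand.

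Levels are quantile-normalized signals on a log2 scale, a difference is nuclei minus cytoplasm in log2 units with its standard error (SE), and a call is an adjusted p under 0.05 over all probes tested. The SE of a probe rests on 1 spread shared by the 6 groups. The median SD within a group was 0.12 to 0.16 in nuclei and 0.28 to 0.42 in cytoplasm, so comparisons of nuclei alone carry the spread of cytoplasm. Over the 3 muscles, 8 of the 9 probes could be tested and 6 were called, against 69.8% of all 40541 probes tested. The third Meg3 probe was higher in nuclei. Lower in nuclei were the second Meg3 probe, both Dlk1 probes, Rtl1 and the second Mirg probe. Their share is near the background, and the median difference of the 8 probes was -0.37 against -0.08 over all probes. These calls are relative to the scaling of the arrays: without scaling the median of all probes moved to 0.42, the split of all calls moved from 12663 higher and 15633 lower to 20269 and 8633, and that of the 8 probes from 1 and 5 to 3 and 1. The SD between replicate nuclear arrays was 0.36 to 0.62 of that between repeated spots, where spot noise alone would give 0.32. Counts for the 9 probes and the locus, but not for the gene lists and cell markers, were therefore also taken with the nuclear arrays averaged per muscle. Then the third Meg3 probe was the only one of the 8 still called. Without soleus cytoplasm 1, 3 of 7 were called.

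**Figure D1:**
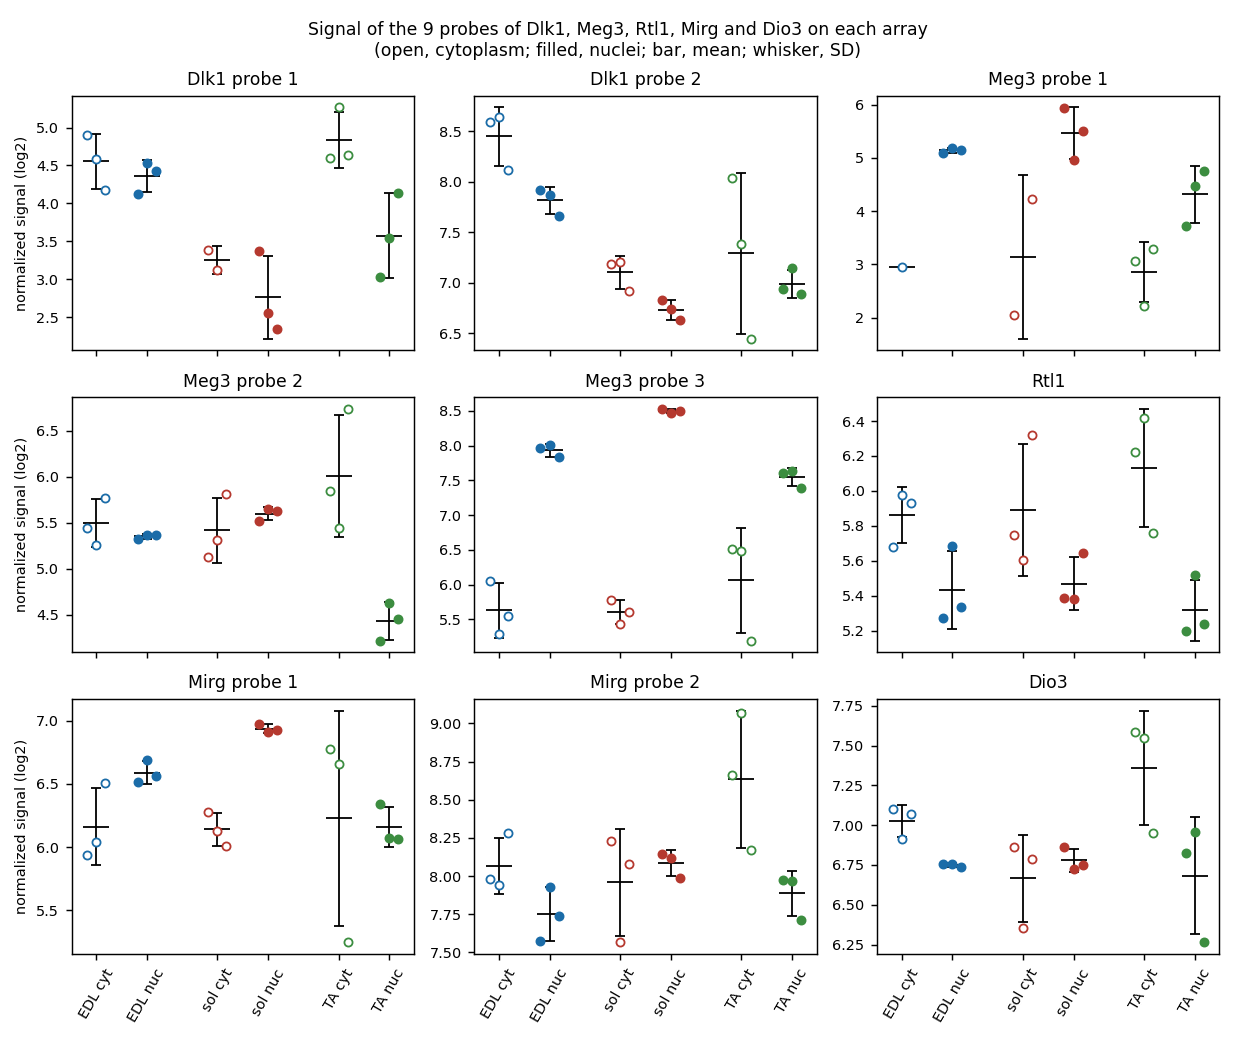
Normalized signal (log2, vertical axis, scaled per panel) of the 9 probes on each of the 18 arrays, by muscle and fraction (cyt, cytoplasm, open; nuc, nuclei, filled), with the mean (bar) and SD (whisker). The nuclear arrays lie above the cytoplasmic arrays in each muscle for the third Meg3 probe, with means of 7.93, 8.50 and 7.55 against 5.63, 5.61 and 6.06.

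Meg3 is a long non-coding RNA known from nuclei and from binding to the Polycomb complex PRC2. The third probe, the brightest, read 6.06, 5.29 and 5.55 in EDL cytoplasm and 7.96, 8.01 and 7.83 in EDL nuclei. In soleus it read 5.78, 5.43 and 5.61 in cytoplasm and 8.52, 8.47 and 8.50 in nuclei. In TA it read 6.51, 6.48 and 5.2 in cytoplasm and 7.61, 7.63 and 7.39 in nuclei. The fractions did not overlap in any of the 3 muscles, and TA cytoplasm 3 was the lowest of all arrays. Over the muscles the difference was 2.23 (SE 0.17, adjusted p = 2.6e-08), and it stayed between 2.08 and 2.30 with each array left out in turn. Taken singly, EDL gave 2.30 (SE 0.29, adjusted p = 2.2e-05), soleus 2.89 (adjusted p = 4.6e-06) and TA 1.48 (adjusted p = 0.00062). With nuclear arrays averaged per muscle the TA call was lost (adjusted p = 0.099). On the slide that held both TA fractions, with 1 cytoplasm array, the TA difference was 1.07 (adjusted p = 0.0051). The muscles were not shown to differ in this difference (interaction, adjusted p = 0.17), although without TA cytoplasm 3 the interaction was called (adjusted p = 0.0091).

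The first Meg3 probe was not well above background on any of the 9 cytoplasmic arrays and was so on 8 of the 9 nuclear arrays. EDL nuclei read 5.09, 5.18 and 5.15, soleus nuclei 5.93, 4.96 and 5.51, and TA nuclei 3.73, 4.47 and 4.76. Of the cytoplasmic arrays, 1 of EDL, 2 of soleus and 3 of TA gave a value, none above 4.24. A fold against such arrays is a lower bound, set by the lowest signal well above background. The probe was at least 1.93-fold higher in nuclei in EDL, where it could not be tested, at least 2.09-fold in soleus (adjusted p = 0.0053) and at least 1.11-fold in TA (adjusted p = 0.024). The TA call was lost without TA cytoplasm 2 (adjusted p = 0.098), TA nuclei 2 (0.065) or TA nuclei 3 (0.084), and both calls were lost with nuclear arrays averaged per muscle.

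The second Meg3 probe, described as transcript variant 1, did not follow the other probes. It read 5.45, 5.26 and 5.77 in EDL cytoplasm against 5.32, 5.37 and 5.37 in EDL nuclei, and 5.13, 5.32 and 5.81 against 5.52, 5.65 and 5.63 in soleus. The fractions overlapped in both muscles, with differences of -0.14 and 0.18 (SE 0.27 each) that were not called. In TA it read 5.84, 5.45 and 6.74 in cytoplasm and 4.22, 4.62 and 4.46 in nuclei, without overlap. This TA difference was -1.57 (adjusted p = 0.00026), and -1.01 on the slide with both TA fractions (adjusted p = 0.0084). The call for TA was lost with the TA nuclei averaged (adjusted p = 0.075). The interaction of muscle and fraction just missed the threshold for this probe (adjusted p = 0.052), and it passed when only spots well above background were kept (adjusted p = 0.02) and without TA cytoplasm 3 (adjusted p = 0.039). In TA the second and the third probe of Meg3 were therefore called in opposite directions.

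Mirg is a non-coding RNA from whose transcription unit a large cluster of microRNAs is processed. Its first probe read 5.94, 6.04 and 6.51 in EDL cytoplasm and 6.52, 6.69 and 6.56 in EDL nuclei. It read 6.28, 6.13 and 6.01 in soleus cytoplasm and 6.98, 6.91 and 6.93 in soleus nuclei. Nuclei lay above cytoplasm in both muscles, in EDL only just, and of the single muscles the difference was called in soleus only (0.80, SE 0.30, adjusted p = 0.048). Over the muscles it was 0.39 (adjusted p = 0.061), and with the replicate number as a block it was called (adjusted p = 0.041). The spread shared by the groups took in TA cytoplasm, with an SD of 0.85, against 0.13 in soleus cytoplasm and 0.03 in soleus nuclei. The soleus call held in 4 of 18 fits that left out an array, those without EDL cytoplasm 3 or a TA cytoplasm array. It was lost without each of the others, soleus cytoplasm 2 among them (adjusted p = 0.073), with adjusted p-values up to 0.12. In TA the probe read 6.77, 6.66 and 5.25 against 6.34, 6.07 and 6.07, which overlap.

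The second, brighter Mirg probe read 7.98, 7.94 and 8.28 in EDL cytoplasm against 7.58, 7.93 and 7.74 in nuclei, and 8.23, 7.57 and 8.08 against 8.14, 8.12 and 7.99 in soleus. In TA it read 8.66, 9.07 and 8.17 in cytoplasm and 7.98, 7.97 and 7.71 in nuclei. The TA fractions did not overlap, with a difference of -0.75 (SE 0.23, adjusted p = 0.013) and of -1.18 on the slide with both fractions (adjusted p = 0.003). It was lost without TA cytoplasm 2 (adjusted p = 0.071) or TA nuclei 3 (0.051). Over the 3 muscles the difference was -0.31 (adjusted p = 0.046), which became 0.42 without scaling (adjusted p = 0.037), where the median of all probes was also 0.42, and was -0.0012 in the authors' deposited values. It held in 4 of 18 fits that left out an array, those without EDL cytoplasm 2, EDL nuclei 2, soleus cytoplasm 2 or TA cytoplasm 3.

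The 3 protein-coding genes were lower in nuclei or not called. Rtl1 (chr12:110828379-110828438, reverse strand) read 5.68, 5.97 and 5.93 in EDL cytoplasm and 5.27, 5.69 and 5.34 in EDL nuclei. It read 5.75, 5.61 and 6.32 against 5.38, 5.38 and 5.64 in soleus, and 6.22, 6.42 and 5.76 against 5.2, 5.52 and 5.24 in TA. Nuclei were lower without overlap in TA and overlapped with cytoplasm in EDL and soleus. The difference was -0.56 over the muscles (SE 0.13, adjusted p = 0.0013) and -0.82 in TA (adjusted p = 0.0066), where it was -1.10 on the slide with both fractions. Without scaling the value over the muscles was -0.12 and was not called.

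Dio3 (chr12:111518792-111518851, forward strand) read 7.10, 6.91 and 7.07 in EDL cytoplasm and 6.76, 6.75 and 6.74 in EDL nuclei. It read 6.86, 6.35 and 6.79 against 6.86, 6.72 and 6.75 in soleus, and 7.58, 7.55 and 6.95 against 6.83, 6.96 and 6.26 in TA. Only in EDL did the fractions not overlap, and there the difference of -0.28 was not called (adjusted p = 0.31). The TA difference of -0.68 was called (SE 0.22, adjusted p = 0.017), while the value over the muscles, -0.28, was not (adjusted p = 0.058), except with the replicate number as a block (adjusted p = 0.022). The TA call was lost without TA cytoplasm 1 (adjusted p = 0.055), TA cytoplasm 2 (0.061) or TA nuclei 3 (0.096), and it was -0.87 on the slide with both fractions (adjusted p = 0.017).

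In cytoplasm Dlk1 was the only gene of the 5 whose level was called between muscles. Its second probe (chr12:110698721-110698781, forward strand) read 8.59, 8.64 and 8.12 in EDL cytoplasm, 7.19, 7.21 and 6.91 in soleus cytoplasm, and 8.04, 7.39 and 6.45 in TA cytoplasm. EDL and soleus cytoplasm did not overlap, and TA spanned the range of soleus and reached below it. The muscle effect in cytoplasm was called for this probe (moderated F test, adjusted p = 0.0083) and for the first Dlk1 probe (adjusted p = 0.012), 2 of 8 probes tested against 24.0% of all probes. With the replicate number as a block only the second Dlk1 probe was called (adjusted p = 0.038), and without soleus cytoplasm 1 or 2 a single probe of 7 was. With nuclear arrays averaged per muscle 0 of 8 were called by limma (2 at an unadjusted p under 0.05). Without TA cytoplasm 3, 5 of the 8 probes were.

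For the second Dlk1 probe, EDL nuclei read 7.92, 7.87 and 7.66, soleus nuclei 6.83, 6.74 and 6.63, and TA nuclei 6.93, 7.15 and 6.88. EDL nuclei were the highest without overlap, but the soleus difference of -1.09 (SE 0.29) was not called (adjusted p = 0.094), nor was that of TA, -0.83 (adjusted p = 0.063). The spread behind this SE is shared with TA cytoplasm, where the SD was 0.80, against 0.13 in EDL nuclei and 0.10 in soleus nuclei. The fraction difference was -0.43 over the muscles (adjusted p = 0.032), and it became 0.23 without scaling, below the median of all probes, where it was not called. It was lost without EDL cytoplasm 1 or 2, EDL nuclei 3, soleus cytoplasm 1, soleus nuclei 3, TA cytoplasm 2, or TA nuclei 1 or 3, each in turn, with adjusted p-values up to 0.06. The first Dlk1 probe (chr12:110698502-110698561) was well above background on 4 of 18 arrays. It was at least 1.25-fold higher in EDL than in soleus nuclei (adjusted p = 0.022), 1 of 9 probes called against 1.56% of all probes (0.978% higher and 0.579% lower in soleus). That call was lost without any of the 3 EDL nuclear arrays, or without soleus nuclei 2 or 3, and with nuclear arrays averaged per muscle. In TA this probe was at least 1.44-fold higher in cytoplasm (adjusted p = 0.0047).

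**Figure D2:**
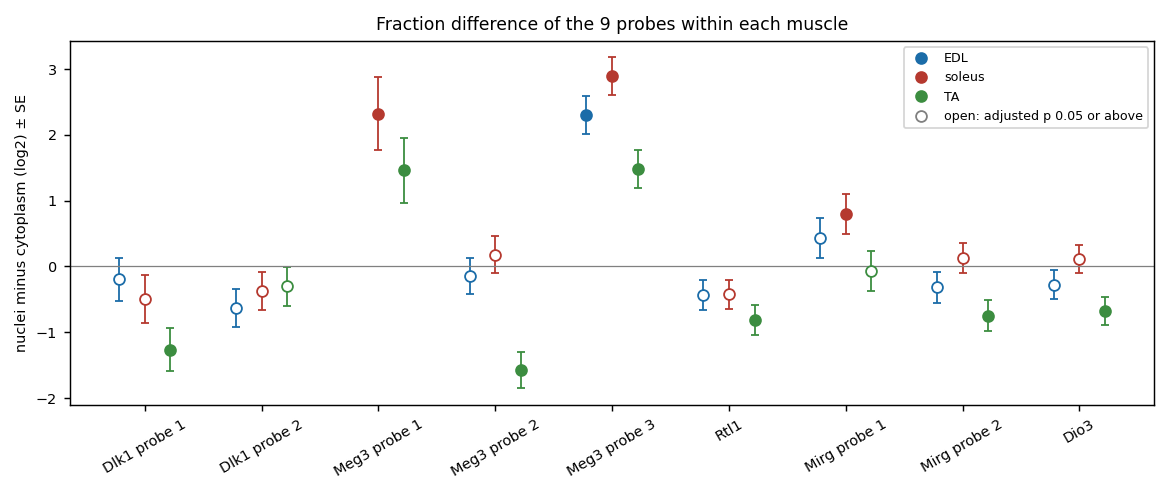
Nuclei minus cytoplasm (log2, vertical axis) of the 9 probes in EDL, soleus and TA, with the SE of the fit; filled points have an adjusted p under 0.05. The third Meg3 probe stands at 2.30, 2.89 and 1.48, the second Meg3 probe falls to -1.57 in TA, and the first Meg3 probe has no point in EDL, where it could not be tested.

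The 3 arrays of each fraction did not overlap at 5 of 8 probes with all values in EDL, 3 of 7 in soleus and 6 of 9 in TA, against 67.1%, 56.8% and 60.5% of all probes. Within single muscles, 1 of 8 member probes was called in EDL, 3 of 9 in soleus and 7 of 9 in TA. The background was 46.6% of all probes in EDL (20.0% higher and 26.5% lower in nuclei), 40.3% for soleus (18.7% and 21.7%) and 52.7% for TA (19.2% and 33.5%). In EDL the call was the third Meg3 probe. In soleus the calls were the first and the third Meg3 probe and the first Mirg probe, all higher in nuclei. In TA these 2 Meg3 probes were higher in nuclei, and the second Meg3, the first Dlk1, the Rtl1, the second Mirg and the Dio3 probe were lower. Without soleus cytoplasm 1 or without soleus cytoplasm 3, 1 probe was called in soleus, and without TA cytoplasm 2 or without TA nuclei 3, 4 were called in TA. Without TA cytoplasm 3, 3 probes were called in EDL and 9 in TA. With nuclear arrays averaged per muscle, 1 probe was called in EDL, 1 in soleus and 0 in TA. In TA the unadjusted limma p was then under 0.05 for 3 of 9 probes, and by the authors' deposited values 3 of 5 were called. None of the 8 probes tested was called in limma's interaction of muscle and fraction, against 1.57% of all probes, and 2 had an unadjusted p under 0.05.

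Between nuclei of the muscles, the second Meg3 probe was lower in TA than in EDL (-0.92, adjusted p = 0.033) and than in soleus (-1.16, adjusted p = 0.0089). The third Meg3 probe was lower in TA than in soleus nuclei (-0.95, SE 0.29, adjusted p = 0.032). These were 1 of 9 and 2 of 9 probes, against 17.4% of all probes for TA and EDL (7.59% higher and 9.81% lower in TA) and 19.6% for TA and soleus (7.75% and 11.9%). TA nuclei were on another slide than EDL and soleus nuclei, so slide and muscle cannot be told apart. Summed satellite cell markers were at 13290 to 16110 in TA nuclei, 1922 to 2167 in EDL nuclei and 2560 to 2969 in soleus nuclei. In TA against EDL nuclei Cdh15 was higher by 5.59 (adjusted p = 0.002), Itga7 by 4.41 (adjusted p = 0.012) and Pax7 by 1.98 (adjusted p = 0.013). Cd34 (0.73, adjusted p = 0.058), Myod1 (0.34, adjusted p = 0.62) and Ncam1 (-0.27, adjusted p = 0.44) were not called, and Myf5 and Calcr could not be tested. Itga7 (mean 13.06) and Cdh15 (12.06) were the brightest of the markers in TA nuclei and led the sum. The part of satellite cells in the Meg3 values was not tested. All 3 Meg3 calls were lost with the replicate number as a block (adjusted p = 0.2, 0.08 and 0.19) and with nuclear arrays averaged per muscle. Under the block the share of all probes called was 0.69% for TA and EDL and 2.42% for TA and soleus. The call against EDL was also lost without any single array of EDL or TA nuclei (adjusted p up to 0.107), and that of the third probe without any single array of soleus or TA nuclei (up to 0.105).

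Between the first Dlk1 and the Dio3 probe the array held 110 further probes with other names, over 820.29 kb. Most carry only the coordinates and strand of a transcribed region, many share a region, and some overlap, so they are not independent. Of the 85 tested over the muscles, 21 were higher and 38 lower in nuclei. Across all probes, 31.2% were higher and 38.6% lower. Without scaling 36 of the 85 were higher and 20 lower, and with nuclear arrays averaged per muscle 10 and 22.

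**Figure D3:**
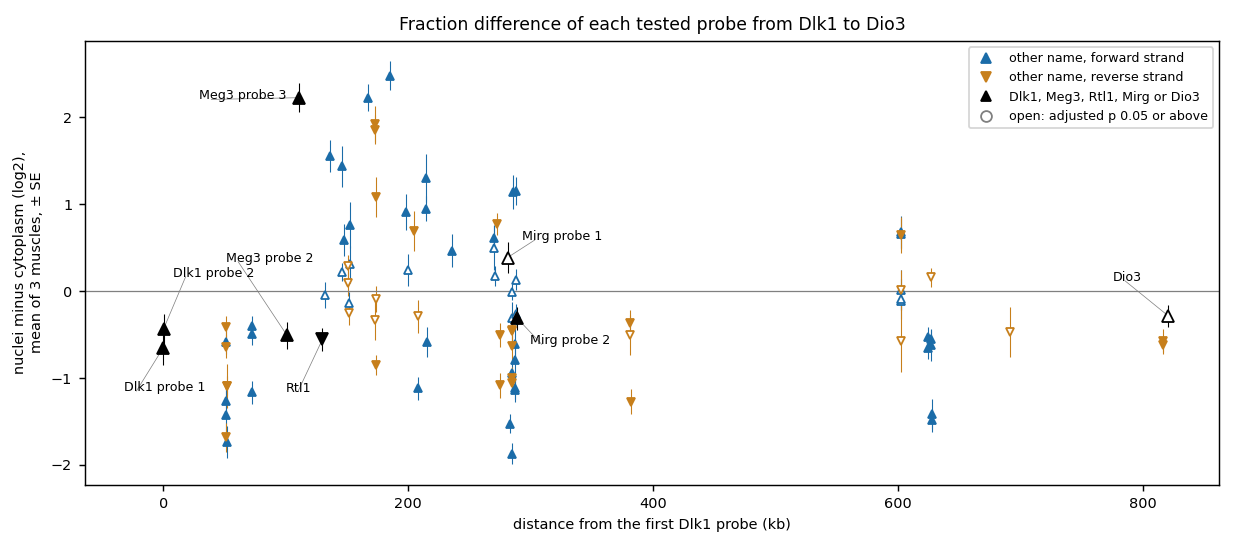
Nuclei minus cytoplasm (log2, mean of the 3 muscles, with SE) of each tested probe against its distance from the first Dlk1 probe (kb), with upward triangles for the forward and downward triangles for the reverse strand, black for the named genes and open where the adjusted p was 0.05 or above. Tested probes between Dlk1 and Meg3 lie below 0, and those between Rtl1 and Mirg reach 2.48.

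All 12 probes tested between Dlk1 and Meg3, 7 forward and 5 reverse, were lower in nuclei, with a median of -1.09, against 38.6% lower among all probes. They come from 2 regions, 1 of them read on both strands. The tested probes lie close together at 51.4 to 51.7 kb and at 72.35 to 72.55 kb from the first Dlk1 probe, so they do not cover the interval. The strongest were A_30_P01023180 (forward, -1.74, SE 0.18, adjusted p = 7.2e-07) and A_30_P01025470 (reverse, -1.68, SE 0.17, adjusted p = 4.3e-07). The former was not well above background on any EDL or soleus nuclear array, so it was at least 2.64-fold and 2.12-fold lower there. Without scaling 7 of the 12 were called lower and 0 higher, and with nuclear arrays averaged per muscle 7 were lower.

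Between Rtl1 and Mirg, the stretch that includes the place of Rian, forward-strand calls were mostly higher in nuclei. This held in EDL and soleus and not in TA, as given by muscle below. Across all probes, 31.2% were higher and 38.6% lower over the muscles. On the forward strand, the strand of Meg3 and Mirg, 11 of 20 tested probes were higher in nuclei and 2 lower, with a median of 0.55. On the reverse strand 5 of 14 were higher and 3 lower, with a median of 0.0018. With nuclear arrays averaged per muscle the forward counts were 5 and 1 and the reverse counts 3 and 2. Without scaling they were 17 and 1, and 9 and 1. A further 10 forward probes were not tested. Of these, 5 were well above background in nuclei and on no cytoplasmic array, 4 of them on at least 6 nuclear arrays. On the reverse strand 7 were not tested, and 4 were well above background in nuclei only, 0 of them on at least 6 nuclear arrays.

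Sequences of 3 forward probes of this stretch that were higher in nuclei are shown, to give the part of the locus a reader would have to place on a transcript. They lie at chr12:110865304-110865363, chr12:110876077-110876136 and chr12:110883878-110883937, and no letters are marked.
A_30_P01027400: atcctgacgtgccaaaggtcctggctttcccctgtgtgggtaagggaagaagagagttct
A_30_P01032469: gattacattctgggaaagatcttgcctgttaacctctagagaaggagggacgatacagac
A_30_P01023461: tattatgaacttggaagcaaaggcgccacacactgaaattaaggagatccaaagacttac
A_30_P01027400 and A_30_P01023461 were named by their difference, and A_30_P01032469, which had no test over the muscles, was chosen after its values were seen.

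A_30_P01027400 read 6.91, 6.82 and 7.07 in EDL cytoplasm and 9.54, 9.52 and 9.55 in EDL nuclei. In soleus it read 7.52, 6.07 and 6.82 against 9.55, 9.44 and 9.51, and in TA 7.11, 7.07 and 6.49 against 8.25, 8.26 and 8.27. Nuclei were higher without overlap in each muscle, by 2.23 over the muscles (SE 0.16, adjusted p = 1.5e-08). A_30_P01032469 was not well above background on any cytoplasmic array and was so on all 9 nuclear arrays. It read 8.13, 8.25 and 8.22 in EDL nuclei, 8.20, 8.19 and 8.21 in soleus nuclei and 7.06, 7.06 and 7.02 in TA nuclei. It was at least 16.1-fold, 13.9-fold and 7.34-fold higher in nuclei in EDL, soleus and TA. A_30_P01023461 had the largest tested difference of the further probes over the muscles, 2.48 (SE 0.17, adjusted p = 9.4e-09). It read between 3.39 and 4.96 in cytoplasm and between 6.17 and 7.48 in nuclei.

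On the reverse strand of the same stretch, A_30_P01026025 was higher in nuclei by 1.92 (SE 0.21, adjusted p = 9.7e-07). It read 3.74, 3.43 and 4.36 in EDL cytoplasm and 6.53, 6.93 and 6.72 in EDL nuclei, and since the former were not well above background it was at least 5.41-fold higher. In TA it read 5.02, 5.17 and 4.21 in cytoplasm and 5.14, 5.25 and 5.29 in nuclei, which overlap. 6430411K18Rik, the transcript antisense to Rtl1, was not called, with a difference of -0.04 (SE 0.15, adjusted p = 0.82). 1110006E14Rik, the next gene name on the forward strand, was higher in nuclei by 1.55 at the tested one of its 2 probes (SE 0.19, adjusted p = 2.6e-06).

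**Figure D4:**
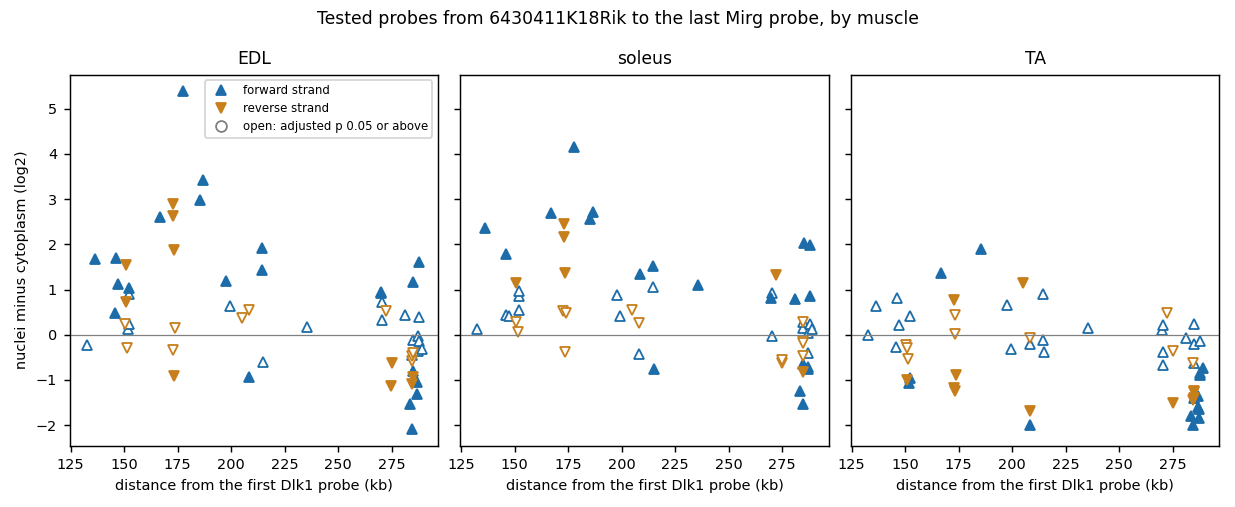
Nuclei minus cytoplasm (log2, vertical axis) of tested probes from 6430411K18Rik to the last Mirg probe against the distance from the first Dlk1 probe (kb), in EDL, soleus and TA; filled points have an adjusted p under 0.05. On the forward strand between Rtl1 and Mirg, 13 of 24 probes were higher in EDL nuclei, 10 of 23 in soleus and 2 of 22 in TA.

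By muscle, the forward probes between Rtl1 and Mirg had EDL, soleus and TA medians of 0.94, 0.93 and 0.04. Higher in nuclei were 13 of 24 in EDL and 10 of 23 for soleus, with 1 lower in each. Of 22 in TA, 2 were higher and 3 lower. Across all probes the higher and lower shares were 20.0% and 26.5% in EDL, 18.7% and 21.7% in soleus, 19.2% and 33.5% in TA. The interaction of muscle and fraction, tested for single probes, was called for 7 of 93 probes of the whole locus, 7.53% against 1.57% of all probes. With the replicate number as a block it was called for 2 of 93, against 0.466% of all probes, and with nuclear arrays averaged per muscle limma called 0 of 93 and 0 of all 40541 probes (4 and 586 at an unadjusted p under 0.05).

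Among the Mirg probes, between the first and the second, 13 forward and 5 reverse probes of other names were tested. On the forward strand 2 were higher and 7 lower in nuclei (median -0.61), and on the reverse strand 4 were lower and 0 higher (median -0.63). Without scaling 5 were higher and 6 lower on the forward strand, and 0 and 2 on the reverse strand. A_30_P01019496 (chr12:110983159-110983218) had the strongest fall, -1.87 (SE 0.12, adjusted p = 7.9e-09). It read 8.44, 8.43 and 8.38 in EDL cytoplasm against 6.5, 6.18 and 6.33 in nuclei, 8.09, 7.53 and 8.14 against 6.41, 6.37 and 6.40 in soleus, and 9.11, 8.76 and 8.24 against 6.73, 6.59 and 6.79 in TA. Cytoplasm was higher without overlap in each muscle.

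In the same stretch, 2 forward probes that overlap by 45 bases gave different values. Their sequences are printed with the shared bases in capitals, from chr12:110986374-110986433 and chr12:110986389-110986448. This pair was chosen after its values were seen.
A_30_P01026190: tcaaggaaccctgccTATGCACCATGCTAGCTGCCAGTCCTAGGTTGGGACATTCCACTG
A_30_P01023076: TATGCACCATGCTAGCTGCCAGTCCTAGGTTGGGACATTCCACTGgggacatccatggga
A_30_P01026190 differed by 0.13 between fractions (SE 0.12, adjusted p = 0.35) and A_30_P01023076 by 1.15 (SE 0.16, adjusted p = 1.7e-05). In EDL the former read 7.25, 7.18 and 7.41 in cytoplasm and 7.68, 7.74 and 7.59 in nuclei, and the latter 5.43, 5.2 and 5.68 against 6.93, 7.06 and 7.13. In TA the former fell from 8.12, 8.13 and 7.31 to 7.03, 7.08 and 6.89 without overlap, a difference of -0.85 (adjusted p = 0.0033). The latter read 6.40, 6.31 and 5.90 against 6.09, 6.08 and 6.05. Without scaling A_30_P01026190 was called higher in nuclei as well (0.80, adjusted p = 0.00022), and so it was in the authors' deposited values (0.51, adjusted p = 0.00062). The other 3 pairs of overlapping probes on the same strand of the locus, which share runs of 42 to 57 bases, differed within a pair by 0.02 to 0.10.

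Between Mirg and Dio3, 2 of 11 forward probes tested were higher in nuclei and 6 lower, and 1 of 10 reverse probes was higher and 4 lower. Without scaling the forward counts turned to 3 higher and 2 lower. Dio3os, the antisense neighbor of Dio3, was lower in nuclei at both of its probes, by -0.62 (SE 0.11, adjusted p = 9.4e-05) and -0.57 (SE 0.14, adjusted p = 0.0015), and these probes share a run of 42 bases.

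Gene lists around the locus are given by the brightest probe of each gene. Across all probes tested over the muscles, 31.2% were higher and 38.6% lower in nuclei. Of 13 tested neighbors of the domain, Dio3os among them, 5 were higher in nuclei and 3 lower, with a median of 0.30. The strongest were Dync1h1, a dynein heavy chain (1.48, adjusted p = 0.0039), Wdr25 (-1.39, adjusted p = 3.1e-08) and Hsp90aa1, a chaperone (1.19, adjusted p = 2.5e-05). Of 9 tested thyroid hormone genes, 4 were higher and 2 lower (median 0.22). Dio1, an activating deiodinase, was lower by -2.51 (SE 0.15, adjusted p = 2.9e-09), and the coactivator Ncoa1 (1.34, adjusted p = 2.2e-06) and the corepressor Ncor1 (1.34, adjusted p = 1.4e-06) were higher. Dio2, which activates the hormone that Dio3 inactivates, was higher in nuclei by 0.68 (adjusted p = 0.00049). Without scaling the counts of these 2 lists were 9 higher and 1 lower, and 7 higher and 1 lower.

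Of 13 Notch pathway genes, to which Dlk1 is related, 9 were higher and 2 lower, with a median of 1.10. Among them were the target Hes1 (1.48, adjusted p = 4.1e-06) and the ligand Jag1 (1.41, adjusted p = 2.4e-05). The ligand Jag2 was well above background on 2 of 9 cytoplasmic arrays, none of them EDL, and was at least 2.80-fold higher in EDL nuclei (over the muscles, adjusted p = 2.7e-06). Of 8 tested genes of PRC2 and imprint control, 6 were higher and 0 lower (median 0.99), with Dnmt3a, a DNA methyltransferase (1.49, adjusted p = 9.3e-08), Ctcf, an insulator protein (1.48, adjusted p = 2.0e-07) and the PRC2 subunit Suz12 (1.34, adjusted p = 6.2e-05) leading. Without scaling 11 of the Notch genes were higher and 1 lower, and 8 of the PRC2 and imprint genes were higher and 0 lower. All 4 known nuclear RNAs were higher, with a median of 3.03, among them Xist (4.38), Kcnq1ot1 (3.27) and Neat1 (2.78).

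Markers of other cells moved with fraction too, where 31.2% of all probes were higher and 38.6% lower in nuclei. Endothelial markers were higher in nuclei for 7 of 7 genes, with summed signals of 1952 to 7262 on cytoplasmic and 6424 to 9859 on nuclear arrays. Fibroblast markers were higher for 6 of 7 genes, 19570 to 45498 against 37930 to 73608, and Schwann cell markers for 5 of 6, 757 to 1734 against 1394 to 3870. Macrophage markers were lower for 4 of 6, 3058 to 7230 against 2606 to 3022, although without scaling 1 was lower and 1 higher. Of 8 satellite cell markers 5 were tested, 0 were higher and 1 was lower (4 and 1 without scaling), with sums of 3213 to 20165 against 1922 to 16110. The untested Myf5 was flagged well above background on 9 nuclear and 3 cytoplasmic arrays, but it had no usable value in nuclei and did not enter the nuclear sums. Pax7, also untested over the muscles, was so flagged on 6 nuclear and 2 cytoplasmic arrays. Calcr was not well above background on any array. Myofiber markers were higher for 10 of 11, with sums of 121370 to 218814 against 204336 to 265499. With 75th percentile scaling 6 were higher and 2 lower, and without scaling 11 were higher and 0 lower. The part of these cells in the Meg3 and Dlk1 values was not tested.

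The 5 probes outside the locus whose profile over the 18 arrays was most like that of the third Meg3 probe were sought among 35443 probes with a value on each array. They were 2 region probes of chromosome 3 (A_30_P01019972, r = 0.982, and A_30_P01021979, r = 0.975), a region probe of chromosome 13 (A_30_P01017483, r = 0.973), LOC548102 (r = 0.969) and Calhm1 (r = 0.968). Each was higher in nuclei, by at least 1.83, a direction that their choice by correlation with this probe had set beforehand. Within the locus the first Mirg probe correlated with it at r = 0.68, the second Mirg probe at -0.20, the second Meg3 probe at -0.34 and Rtl1 at -0.61. These values describe 18 arrays that share slides and fractions.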

How the data were processed

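Myofiber fractions were hybridized to single-channel Agilent arrays. Per the file headers and the methods, in the deposited scanner files each spot has an intensity, extracted by the authors with Feature Extraction 10.7.3.1, with correction within the array only. The authors' deposited matrix of quantile-normalized intensity, with values for 3668 probe names including 5 of the 9 probes, was used as an alternative only.

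Here the intensity was taken to log2, spots not positive and significant or marked as outliers were set to missing, control spots (3671) were dropped, quantile normalization was applied across arrays, and spots were averaged to 55681 probe names. Means of the 6 groups were fitted with limma 3.58.1 in R 4.3.3 (eBayes over all probes, prior degrees of freedom 3.27), in place of the methods' Significance Analysis of Microarrays, with p-values adjusted by Benjamini and Hochberg over all probes tested. A probe needed values on 2 of 3 arrays in each group involved. Tests were 2-sided, and the fit was tested on simulated data. Tables were read with data.table (1.17.8) in R and with pandas 2.3.3 and numpy 2.4.6 in Python 3.11.15, and matplotlib 3.10.9 drew the plots. Lower bounds divide the brighter group by, per array, the higher of the dim probe's own signal and the lowest signal well above background.

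The genes, lists and named probes were chosen with earlier results of these data known. All member probes are named; of the other probes of the locus, the 3 tested with the largest difference in each direction; of each list, up to 3 genes with the largest called difference, Dio2 being added as the counterpart of Dio3; and the 5 probes most like the brightest Meg3 probe. Probe positions are those of the array (mm9), and no annotation of exons in that build was used here. The sequence and position of 1 Meg3 probe are not reported here. RefSeq (GRCm38.p6) served for the order of genes only. Replicate numbers pair EDL and soleus samples through shared mice and TA samples in part. Deviations from group means of same-numbered fractions correlated with r between -0.09 and 0.13 over 35528 probes. At 399 probes with 10 spots, the SD between replicate arrays was 0.36 to 0.62 of that between spots in nuclei and 1.09 to 1.61 in cytoplasm, where 0.32 is what spot noise alone gives. The nuclear replicates were therefore also averaged to 1 sample per muscle.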

Additional observations from a re-analysis of the deposited data

Results flagged for a closer look

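The first Meg3 probe could not be tested in the interaction of muscle and fraction, and none of the other 8 probes of the named genes was called. Of the other probes of the locus, 7 were. With the replicate number as a block 2 of the 7, A_30_P01023700 (adjusted p = 0.042) and A_30_P01026190 (adjusted p = 0.048), were called, and with nuclear arrays averaged per muscle none was, nor was any of all 40541 probes tested by limma (586 had an unadjusted p under 0.05). Between Rtl1 and Mirg these were A_30_P01023700 (reverse strand, differences of 0.71, 1.14 and -1.0 in EDL, soleus and TA, adjusted p = 0.0102), A_30_P01018006 (forward, 0.13, 0.54 and -1.07, adjusted p = 0.0269) and A_30_P01026025 (reverse, 2.88, 2.46 and 0.43, adjusted p = 0.0387). In the same stretch were A_30_P01021145 (reverse, 0.55, 0.25 and -1.68, adjusted p = 0.0389) and A_30_P01030446 (forward, 1.44, 1.53 and -0.12, adjusted p = 0.0394). Near the second Mirg probe were the overlapping A_30_P01026190 (0.39, 0.85 and -0.85, adjusted p = 0.0213) and A_30_P01023076 (1.61, 1.98 and -0.13, adjusted p = 0.0277). In each the value was lowest in TA. TA arrays were on other slides than EDL and soleus, except TA cytoplasm 1, so slide and muscle cannot be told apart.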

How the results depend on the processing

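Higher nuclear signal of the third Meg3 probe over the 3 muscles, in EDL and in soleus was called under every alternative run. The number of the 9 probes called moved for other results. With the authors' deposited values, which hold 5 of the 9 probes, 3 were called over the muscles, 3 in EDL, 3 in TA, 0 in soleus against EDL nuclei, 0 in TA against EDL, 1 in TA against soleus and 1 for the muscle effect in cytoplasm. With nuclear arrays averaged per muscle, the counts were 1 over the muscles, 1 in soleus, and 0 in TA, in the 3 comparisons of nuclei and in cytoplasm. With 75th percentile scaling they were 2 in EDL, 5 in soleus, 2 in soleus against EDL nuclei and 2 in TA against EDL. Without scaling they were 6 in soleus, 6 in the interaction, 3 in TA against EDL and 7 in TA against soleus nuclei, where 62.1%, 36.4%, 29.5% and 48.9% of all probes were called. With normexp they were 0, 0 and 4 in soleus against EDL, TA against EDL and TA against soleus nuclei, and 4 in cytoplasm. With only spots well above background they were 1 in the interaction, 0 in soleus against EDL and 2 in TA against EDL. With no spot set missing they were 2 in EDL and 0 in TA against EDL nuclei, with a pseudocount of 16 they were 0 in soleus against EDL and 4 in cytoplasm, and with values on 3 of 3 arrays 1 in cytoplasm. The replicate block (number as a term, separate for TA) gave 0, 0 and 1 in TA against EDL, TA against soleus nuclei and cytoplasm, and 8 in place of 6 over the muscles, Dio3 and the first Mirg probe being added, with the other counts unmoved. Leaving out 1 array gave 3 to 7 over the muscles, 1 to 3 in EDL, 1 to 3 in soleus, 4 to 9 in TA, 0 to 3 in the interaction, 0 to 2 in soleus against EDL, 0 to 2 in TA against EDL, 1 to 3 in TA against soleus and 1 to 5 in cytoplasm. The second Dlk1 probe (0.23) and the second Mirg probe (0.42) reversed in sign without scaling, which moved the median of all probes from -0.08 to 0.42. Where a lone array was left, it was assumed to vary like the other groups. The causes were not tested, except that fewer samples or probes entered some fits. Probes near background limit the first Meg3 and first Dlk1 values.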
